A study of Mus musculus with 20 samples.

Results

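Hair shaft keratins and keratin-associated proteins (KAPs) were examined in the skin of naïve mice and of mice with IL-23-induced inflammation. All probe-sets with a single gene symbol starting with Krt and a digit, or with Krtap, were taken, apart from the epidermal keratins Krt1, Krt2, Krt5, Krt6a, Krt6b, Krt10, Krt14, Krt15, Krt16 and Krt17. This gave 89 probe-sets of 76 genes among the 34958 probe-sets of 18194 genes that carried 1 symbol. They comprised 46 probe-sets of 38 keratin genes and 43 probe-sets of 38 KAP genes. The rule reaches beyond the hair shaft. By role, 7 probe-sets belonged to type I hair keratins, 5 to type II hair keratins, 7 to keratins of the inner root sheath, 1 to the companion layer keratin Krt75, 8 to simple epithelial keratins and 18 to other keratins.

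Skin RNA came from female C57BL/6 mice, bought at 6 weeks of age and housed for 1 week, with 5 mice and 5 Affymetrix mouse4302 arrays in each of 4 groups. Naïve mice were labelled as normal. The other 3 groups received 3 µg of IL-23 into the dorsal skin on each of days 1 to 4, and then saline, IMO-3100 or IMO-8400 under the skin at a distant site on days 4, 5 and 6, with each antagonist at 15 mg/kg and skin taken on day 7. The series record speaks of a pair of doses of a TLR7/8/9 antagonist, whereas the sample labels and the methods name IMO-3100 and IMO-8400 as separate agents, and the labels were followed. IMO-3100 blocks Toll-like receptors (TLRs) 7 and 9, and IMO-8400 blocks TLRs 7, 8 and 9. No control injection is described for naïve mice, so that IL-23 and the injections cannot be told apart in a comparison with them. Mice are called 1 to 5 within a group in the order of the sample records, as names only.

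The hair follicle passes through growth, regression and rest. During growth, cells of the matrix differentiate upward into the shaft, which is built of paired type I and type II hair keratins, and into the inner root sheath, which moulds the shaft and has keratins of its own. KAPs are small proteins rich in cysteine, or in glycine and tyrosine, that form the matrix between the keratin filaments of the shaft. A resting follicle holds a finished club hair and no longer makes these proteins, and the follicles of mouse back skin pass through the early cycles together. The phase of the cycle was not recorded in the labels.

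In naïve skin the hair and inner root sheath genes ran from as high as 15.14 down to the lowest value on the array, depending on the mouse. They were high in naïve mice 1, 2 and 3, lower in mouse 4 and close to background in mouse 5. Expression is given on the log2 scale of GCRMA, whose lowest value was 2.02 on every array, and a group with all 5 mice below 3 is called near background. Values below 3 have no order, and were counted as level wherever groups or mice were ordered. Of the 89 probe-sets, 76, 74, 72, 36 and 22 lay at 3 or above in naïve mice 1 to 5, against 15 to 18 in each saline mouse. The SD among the 5 naïve mice was above 2 in 63 of 89 probe-sets, where 1.4% of the 30960 probe-sets tested had such an SD. The median SD was 4.26 in naïve mice over the 89 probe-sets and 0.30 over all those tested. No probe-set of the set had an SD above 2 in saline or in IMO-3100 mice (0.12% and 0.08% of all tested), and 8 did in IMO-8400 mice (0.10% of all tested). Of the 89, 70 were near background in saline mice and 72 in IMO-3100 mice, which leaves little room for spread. Mouse 1 lay above mouse 2, mouse 2 above mouse 3, and mouse 3 above both others in 61 of the 89, an order found in 5.13% of all probe-sets tested. This order was read from the same probe-sets, so the count describes them and is no test.

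**Figure D1:**
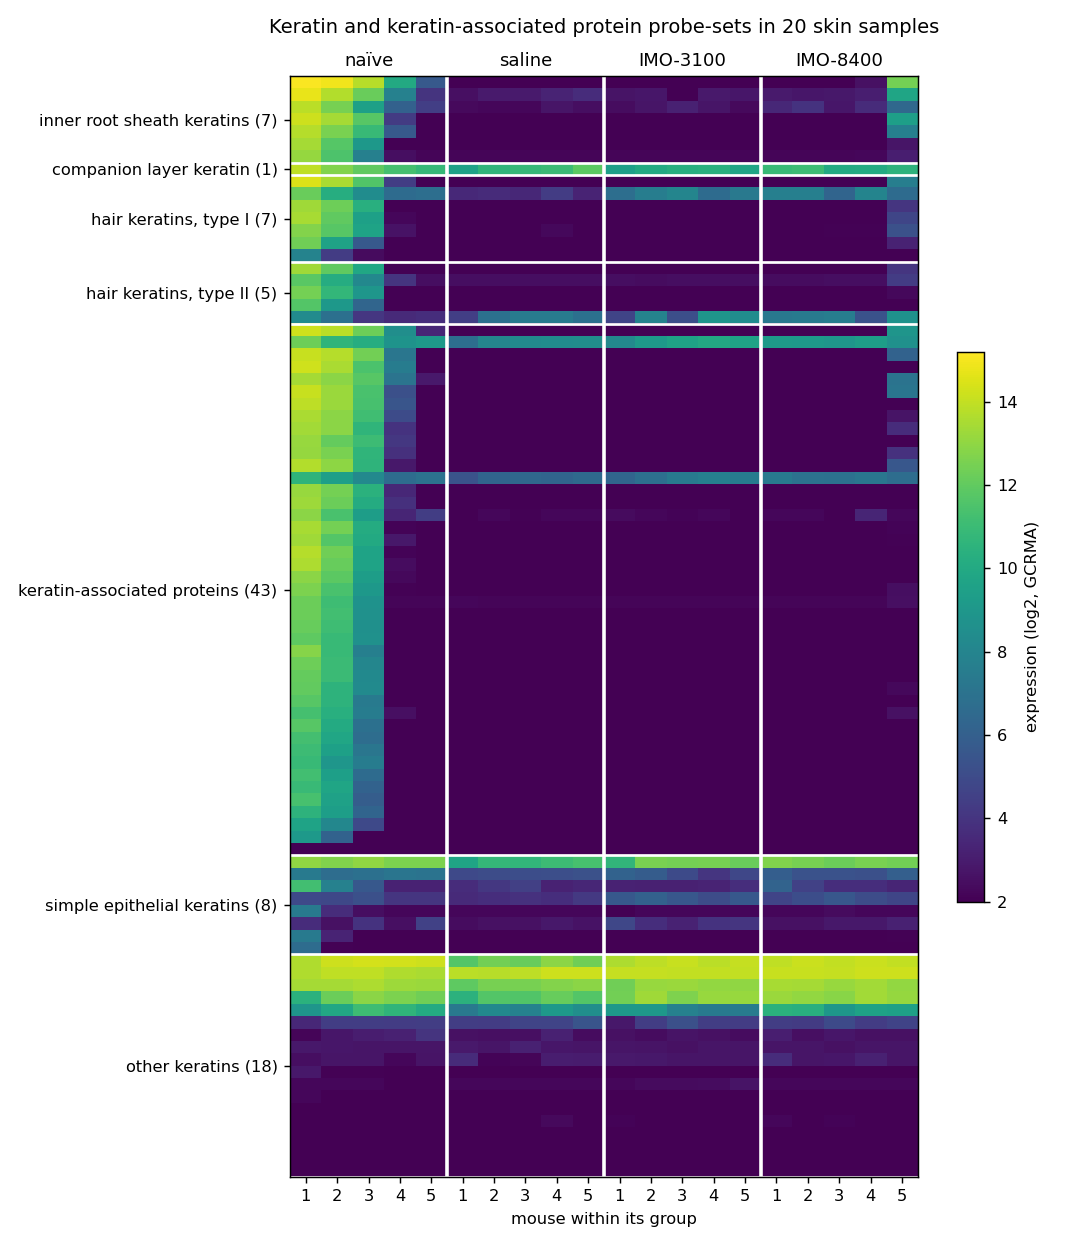
Expression (log2, GCRMA, colour) of all 89 probe-sets in rows, grouped by role with the number of probe-sets in brackets, in the 20 mice in columns. Most hair keratins, inner root sheath keratins and KAPs are bright in naïve mice 1 to 3, and naïve mouse 4 and IMO-8400 mouse 5 each have 36 of the 89 at 3 or above.

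The promoters of 4 of these genes are shown because they stand for the patterns that follow. Krt25 stands for the inner root sheath keratins, Krt34 for those of the cortex and Krtap8-1 for the KAPs, and Krt32 is a hair keratin that, like Krt84, was near background in no group. The sequences are the 250 bases before the transcript start, 5′ to 3′ on the strand of the gene, from RefSeq on GRCm38.p6, with matches to TATAAA and to CTTTGAA, a core of sites for LEF1 and related factors, in capitals. They lie at chr11:99322952-99323201 for Krt25, chr11:100041555-100041804 for Krt34, chr11:100088270-100088519 for Krt32 and chr16:89487953-89488202 for Krtap8-1, all on the minus strand.
Krt25: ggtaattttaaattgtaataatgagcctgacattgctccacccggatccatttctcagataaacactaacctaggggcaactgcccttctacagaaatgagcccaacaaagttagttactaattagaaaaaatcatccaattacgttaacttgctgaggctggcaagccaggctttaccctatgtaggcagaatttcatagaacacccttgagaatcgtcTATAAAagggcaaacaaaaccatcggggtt
Krt34: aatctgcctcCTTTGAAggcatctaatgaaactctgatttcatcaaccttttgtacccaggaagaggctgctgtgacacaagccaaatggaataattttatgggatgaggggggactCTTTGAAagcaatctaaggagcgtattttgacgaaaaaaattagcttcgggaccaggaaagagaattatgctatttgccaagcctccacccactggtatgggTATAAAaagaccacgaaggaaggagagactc
Krt32: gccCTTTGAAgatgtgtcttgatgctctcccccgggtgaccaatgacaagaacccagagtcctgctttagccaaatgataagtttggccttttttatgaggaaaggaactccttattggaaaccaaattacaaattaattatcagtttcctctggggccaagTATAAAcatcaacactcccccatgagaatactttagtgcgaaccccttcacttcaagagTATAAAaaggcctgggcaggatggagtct
Krtap8-1: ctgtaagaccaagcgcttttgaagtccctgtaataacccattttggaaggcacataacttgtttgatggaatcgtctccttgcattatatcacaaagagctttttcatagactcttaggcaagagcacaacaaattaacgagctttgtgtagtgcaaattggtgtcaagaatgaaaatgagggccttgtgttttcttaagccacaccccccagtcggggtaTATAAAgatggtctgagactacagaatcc

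Each of the 4 had TATAAA close to its start, beginning 30 bases before it in Krt25, 31 in Krt34, and 29 in Krt32 and Krtap8-1. CTTTGAA began 240 and 133 bases before the start in Krt34 and 247 bases before it in Krt32. Promoters were listed for 64 of the 76 genes, 65 promoters in all. With both strands searched over 300 bases, from 250 before to 50 after the start, TATAAA was found in 70.8% of these and in 13.6% of all 32851 promoters. Within 20 to 40 bases before the start on the own strand it was found in 49.2% against 1.99%, and by role in 57.1% of 14 hair and inner root sheath keratin promoters, 58.3% of 36 KAP promoters and 20% of 15 others. CTTTGAA, on either strand, was found in 35.7% of the hair and inner root sheath keratin promoters, 16.7% of KAP promoters, none of the 15 others and 5.14% of all promoters. CAATAAA and TCGTAAA, letters bound by HOXC13, were each found in 1 of the 65 promoters (1.54%), against 4.6% and 0.597% of all. Many of these genes are recent copies of one another, so the promoters are not independent, and a match in letters is no measure of binding.

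All 7 probe-sets of the inner root sheath keratins were high in naïve mice 1 to 3. Krt25, a type I keratin of all layers of the sheath, read 15.14, 14.90, 13.77, 10.04 and 5.67 in naïve mice 1 to 5. It read 2.02 in every saline mouse and every IMO-3100 mouse, so that neither group overlapped with naïve skin. In IMO-8400 mice it read 2.02 in 3 mice, 2.57 in mouse 4 and 12.44 in mouse 5. Krt27, another type I sheath keratin, read 14.78, 13.69, 12.20, 7.82 and 3.99 in naïve mice, 2.54 to 3.69 in saline mice and 2.03 to 2.90 in IMO-3100 mice, and 9.75 in IMO-8400 mouse 5. Krt28 was similar, with 13.83, 12.49, 9.49, 6.09 and 4.47 in naïve mice and 2.22 to 2.76 in saline mice. Krt71, a type II sheath keratin, read 14.21, 13.40, 11.75, 4.31 and 2.02. Mouse 5 was thus at the lowest value for Krt71 and still clearly above saline mice for Krt25 and Krt28. Over the 7 sheath keratins the median was 13.83, 12.57, 10.89, 5.67 and 2.19 in naïve mice 1 to 5.

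Most hair keratins were at or close to the lowest value in both naïve mice 4 and 5. Krt33a, a type I keratin of the hair cortex, read 14.53, 13.54, 11.63, 4.39 and 2.02 in naïve mice 1 to 5, 2.02 in all saline and IMO-3100 mice, and 7.67 in IMO-8400 mouse 5. Krt33b read 12.74, 11.79, 9.66, 2.64 and 2.02 in the naïve mice, and Krt34 read 13.30, 12.27, 10.33, 2.04 and 2.03. Among the type II partners, Krt81 read 13.30, 11.98, 9.85, 2.02 and 2.02, and Krt86 read 12.44, 10.75, 8.94, 2.02 and 2.02. In both genes naïve mice 4 and 5 could not be told from saline mice. Krt83, also of the cortex, read 11.81, 10.17, 8.18, 3.99 and 2.47, where 2.47 was also its value in all 5 saline mice. The median over the 7 type I keratins was 12.74, 11.79, 9.48, 2.23 and 2.02 in naïve mice 1 to 5, and over the 5 type II keratins 11.81, 10.17, 8.18, 2.02 and 2.02. Probe-sets of Krt81, Krt83 and Krt86 may share targets, since these genes are close copies.

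**Figure D2:**
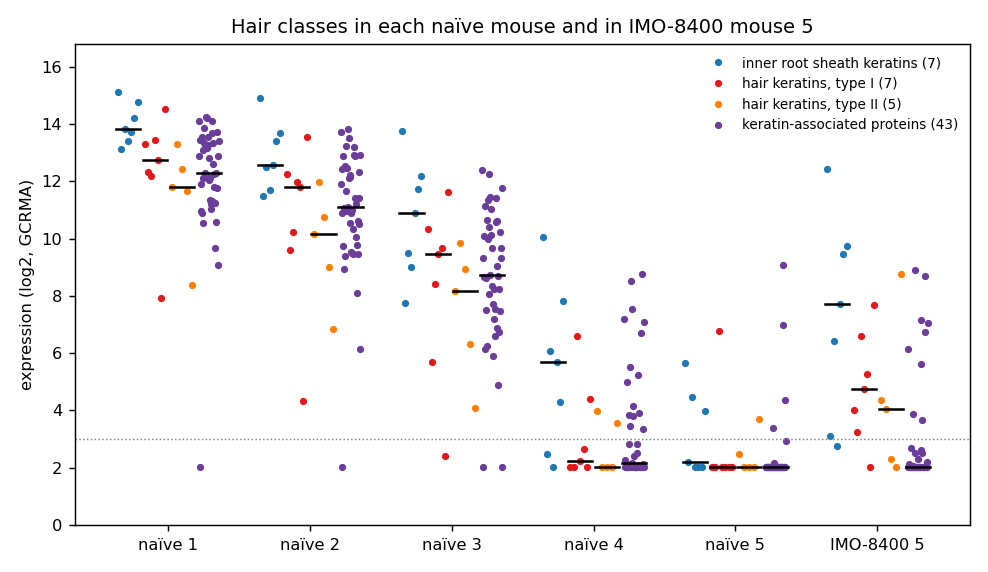
Expression (log2, GCRMA) of each probe-set of 4 classes (points; number of probe-sets in brackets; black bars, medians) in each naïve mouse and in IMO-8400 mouse 5, with a dotted line at 3. The median of the inner root sheath keratins passes from 13.83 in naïve mouse 1 to 2.19 in mouse 5 and is 7.72 in IMO-8400 mouse 5, where that of the KAPs is 2.03.

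KAPs covered the same range. Krtap8-1, of the glycine-tyrosine type, read 14.26, 13.85, 12.27, 8.51 and 3.40 in naïve mice 1 to 5 and 2.02 in all saline and IMO-3100 mice. Krtap16-3, of the same type, read, in that of its 2 probe-sets with the higher mean, 14.23, 13.51, 11.46, 7.52 and 2.04 in naïve mice and at most 2.03 in any of the 15 mice given IL-23. Krtap15 read 14.10, 13.72, 12.41, 7.18 and 2.02, and Krtap22-2 read 13.41, 12.92, 11.75, 7.09 and 2.92. These 4 were chosen for a high mean over all arrays, and over all 43 KAP probe-sets 15 reached 3 in naïve mouse 4, with a median of 2.15. By genomic location in RefSeq, 20 of the 38 KAP genes lay on chromosome 16, 10 on 11, 5 on 7, 2 on 10 and 1 on 1. In naïve mouse 4, 11 of 23 probe-sets of chromosome 16 reached 3, 2 of 10 of chromosome 11, 2 of 6 of chromosome 7, and 0 of 3 and 0 of 1 on chromosomes 10 and 1. Levels differed in naïve mouse 1 too, with medians of 13.33, 12.17, 10.81, 11.21 and 12.13 in the same order. Krtap5-1, of the cysteine-rich type, differed from the rest, with 12.31, 10.62, 10.21, 8.77 and 9.08 in naïve mice and 6.79 or more in every mouse given IL-23 in that of its 2 probe-sets with the higher mean.

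**Figure D3:**
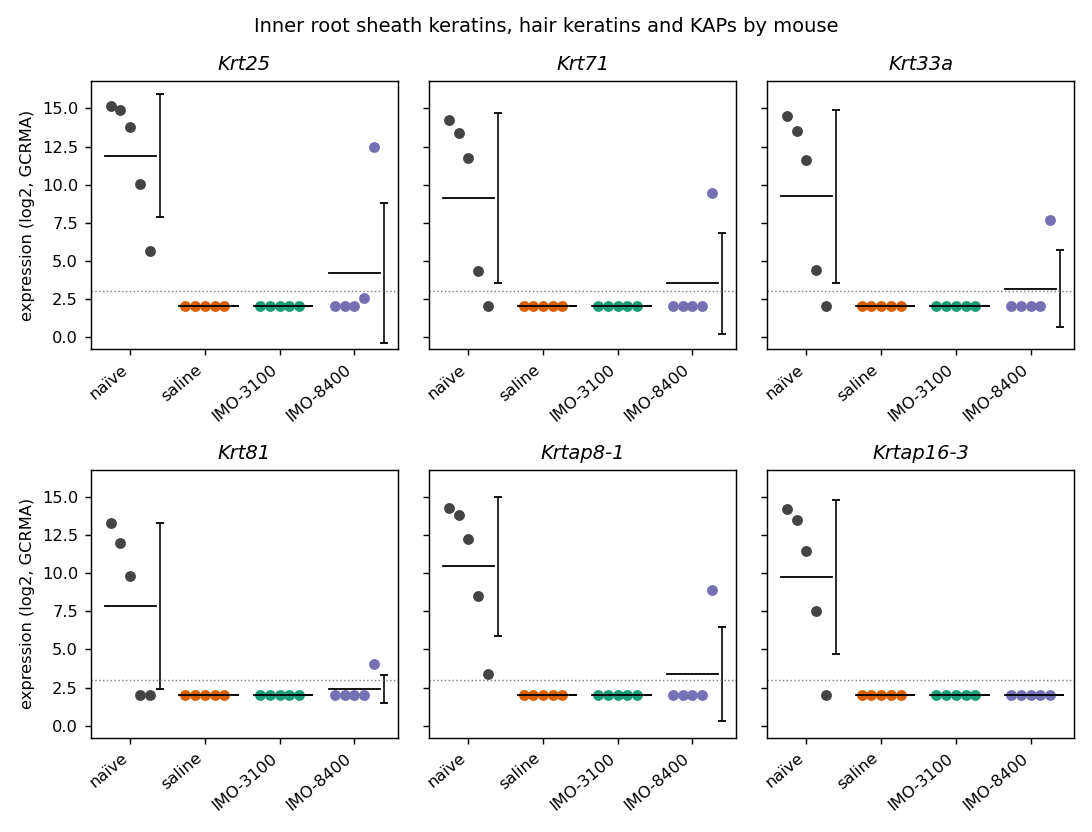
Expression (log2, GCRMA) of 6 genes in each mouse (points, mice 1 to 5 from left to right), with the group mean (line), its SD (bar) and a dotted line at 3. In Krt25 the naïve mice run from 15.14 to 5.67, saline and IMO-3100 mice lie at 2.02, and IMO-8400 mouse 5 stands at 12.44.

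Skin of saline mice was compared with naïve skin to find which of these genes differ after IL-23. Of the 89 probe-sets, 63 (58 genes) were down-regulated at FDR<0.05 and FCH>2, where 8.92% of all 30960 probe-sets tested were down-regulated. By role these were all 7 inner root sheath keratins, 6 of 7 type I and 4 of 5 type II hair keratins, 41 of 43 KAPs, Krt75, 2 of 8 simple epithelial and 2 of 18 other keratins. None was up-regulated, against 7.58% of all probe-sets tested. In limma 1, Krt79, was higher at an unadjusted p below 0.05, and 0 by the exact permutation test. The median difference over the 89 was -4.73 on the log2 scale, and over all probe-sets on the array it was 0.00. In saline mice 70 of the 89 were near background, and in naïve mice 12 were. The exceptions among hair genes were Krt36, Krt84, Krtap5-3 (adjusted p = 0.0645 in limma) and Krtap13, which read 2.02 in all 20 mice; all but Krt84 were named after their values were seen. Since skin was measured in bulk, fewer hair-forming cells and less RNA per cell cannot be told apart.

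Where saline mice were near background, folds are lower bounds against a value of 3. Krt25 was at least 479-fold lower in saline mice (difference -9.89, SE 1.81, limma adjusted p = 0.000295), and Krtap8-1 at least 176-fold (difference -8.44, SE 1.62, adjusted p = 0.000455). In both, every naïve mouse lay above every saline mouse, which gave the smallest p of the exact permutation test with 5 against 5 mice, 0.00794. Krt28 was at least 77.4-fold lower (limma adjusted p = 0.000303), also without overlap. Krtap16-3 was at least 108-fold lower (limma adjusted p = 0.00046), with naïve mouse 5 level with saline mice (exact permutation p = 0.0476 with values under 3 set to 3). Krt33a was at least 74.7-fold lower and Krt71 at least 70.4-fold lower, with limma adjusted p values of 0.00394 and 0.00596, but naïve mouse 5 was level with saline mice in both (exact permutation p = 0.0476). For Krt81 and Krt86, at least 28.5-fold and 18.8-fold lower, both naïve mice 4 and 5 were level with saline mice, and the exact permutation p was 0.167 (limma adjusted p = 0.00767 and 0.00734).

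Naïve and saline mice did not overlap in 12 of the 89 probe-sets, lower in saline, against 12.3% of all probe-sets tested. The exact permutation test gave p below 0.05 with saline lower for 47 of the 89, against 24.5% of all tested, and with values under 3 set to 3 for 29, against 22.4%. The shared model takes 1 spread per probe-set from all 4 groups, whereas here the naïve mice varied most in 72 of the 89. A model of naïve and saline mice alone called 27 lower in place of 63. Without naïve mice 1 and 2 together 30 were lower, and without mice 1 to 3 together 14. The shares of all probe-sets called under these settings were not counted. Mice 1 to 3 were the naïve mice highest in these same genes, so leaving them out shrinks the difference by construction.

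The antagonist groups also had lower means than naïve skin in most of these probe-sets, though naïve mice 4 and 5 had only 36 and 22 of the 89 at 3 or above. In IMO-3100 mice 59 of the 89 were lower than in naïve mice (4.55% of all tested), with no overlap in 9 (7.85% of all tested). The 59 fell to 13 when naïve and IMO-3100 mice were modelled alone. By the exact permutation test adjusted over all probe-sets the count was 14, and 0 with values under 3 set to 3. In IMO-8400 mice 57 were lower (2.43% of all tested), but in 1 only, Krt19, did the groups not overlap (5.13% of all tested). The 57 fell to 19 when naïve mouse 2 was left out and to 2 when naïve and IMO-8400 mice were modelled alone. By the adjusted exact permutation test 0 were lower in IMO-8400 mice. Saline, IMO-3100 and IMO-8400 mice were compared with the same 5 naïve mice, so these counts are not independent. Krt25 fell by 9.89 in IMO-3100 mice (SE 1.81, limma adjusted p = 0.000733) and fell by 7.69 in IMO-8400 mice (SE 1.81, adjusted p = 0.00746), and Krtap16-3 fell by 7.73 in each (SE 1.49, adjusted p = 0.00108 and 0.00191). For Krt25 IMO-3100 and naïve mice did not overlap, but IMO-8400 mouse 5, at 12.44, lay above naïve mice 4 and 5, at 10.04 and 5.67. For Krtap16-3 naïve mouse 5, at 2.04, was level with the mice of both antagonist groups. For Krt71 in IMO-8400 mice, where expression fell by 5.63 with an adjusted p of 0.0496, the call was lost under most other settings, among them leaving out any 1 IMO-8400 mouse from 1 to 4.

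**Figure D4:**
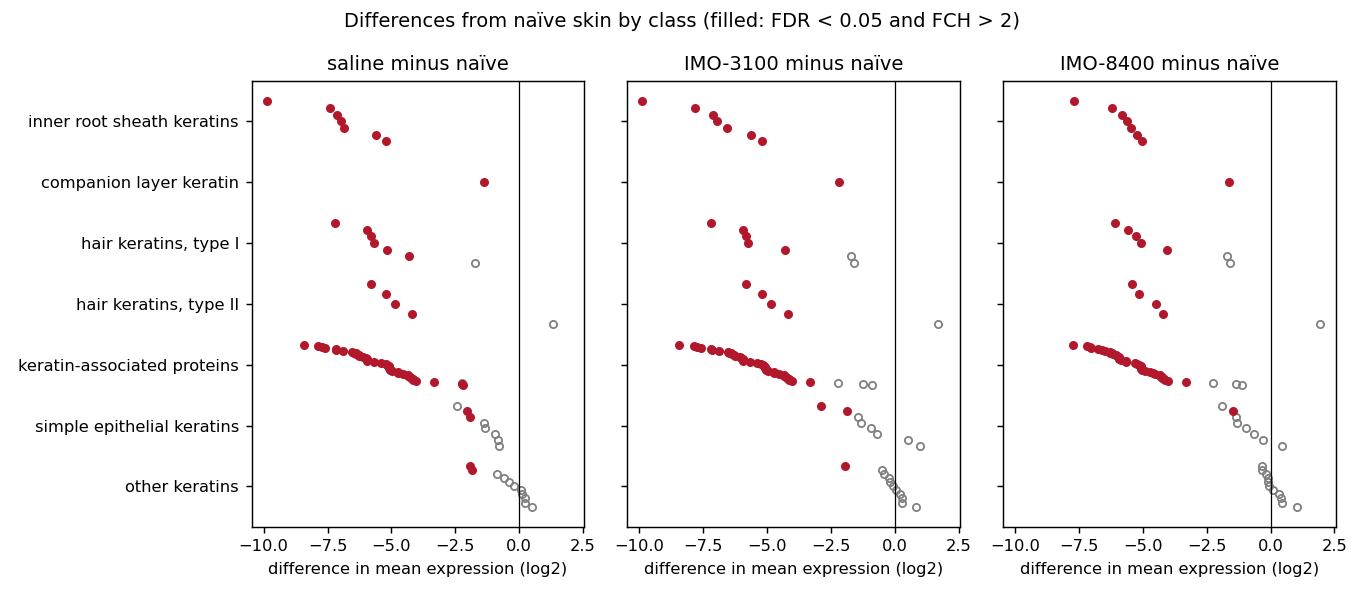
Difference in mean expression from naïve skin (log2) for each probe-set tested, by role, in saline, IMO-3100 and IMO-8400 mice (filled, FDR<0.05 and FCH>2; open, not). Differences of hair keratins, inner root sheath keratins and KAPs reach -9.89 and lie left of 0 in all 3 panels except for Krt84.

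IMO-8400 mouse 5 stood apart from the other 14 mice given IL-23. Of the 89 probe-sets 68 were near background in all saline and IMO-3100 mice. Of these 68, 0, 0, 0, 1 and 18 reached 3 in IMO-8400 mice 1 to 5, and 58, 57, 53, 18 and 3 in naïve mice 1 to 5. The 18 of IMO-8400 mouse 5 and the 18 of naïve mouse 4 had 11 in common, 61.1% of each. The roles differed between these mice. In IMO-8400 mouse 5 the 18 were 4 inner root sheath keratins, 5 type I and 2 type II hair keratins and 7 KAPs, and in naïve mouse 4 they were 3, 1, 1 and 13. Krt71 was 9.46 in IMO-8400 mouse 5 and 4.31 in naïve mouse 4, and Krt33a was 7.67 and 4.39. Krtap16-3 went the other way, at 2.03 and 7.52, while Krtap8-1 was alike at 8.90 and 8.51. These are values of 1 mouse each, with no test. Krt25 and Krtap8-1 were not called between IMO-8400 and saline mice by the limma model (differences of 2.19, SE 1.81, 95% interval -1.60 to 5.99, adjusted p = 0.39, and 1.38, SE 1.62, interval -2.03 to 4.78, adjusted p = 0.567), both resting on mouse 5.

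A minority of keratins differed between the antagonist groups and saline. In IMO-3100 mice 6 of the 89 probe-sets were higher than in saline mice (2.69% of all tested), and in IMO-8400 mice 6 were (4.46% of all tested). Krt32, Krt77, Krt23, Krt78 and Krt7 were higher with both antagonists, Krt20 with IMO-3100 and Krt24 with IMO-8400. None of the 89 was lower with either antagonist, but 70 of the 89 were near background in saline mice and could hardly read lower. The share of all probe-sets lower with an antagonist was not counted, so no result about the set is drawn from this 0. In limma 0 were lower at an unadjusted p below 0.05 in each comparison, and the exact permutation test gave 1 with IMO-3100 (Krt42, named after its values were seen, and not with values under 3 set to 3) and 0 with IMO-8400. Apart from Krt32, no hair keratin, no inner root sheath keratin and no KAP was among those called. Krt28 was 3.45, 3.93, 2.80, 3.65 and 6.44 in IMO-8400 mice and below 3 in all saline mice, but was not called (difference 1.65, SE 1.26, limma adjusted p = 0.35).

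Krt32, a type I keratin of the hair cuticle, had the largest difference between the antagonist groups and saline among those called. It read 12.19, 10.22, 8.43, 6.60 and 6.76 in naïve mice 1 to 5. Saline mice read 3.52, 3.61, 3.49, 4.36 and 3.33, below all other mice. IMO-3100 mice read 6.78, 7.59, 8.00, 6.59 and 7.33, and IMO-8400 mice 7.72, 7.70, 6.25, 7.96 and 6.60, both level with naïve mice 4 and 5. Expression fell by 5.18 from naïve to saline mice (SE 0.77, limma adjusted p = 4.14e-05), a 36.2-fold change. It was 12.1-fold higher in IMO-3100 than in saline mice (3.60, SE 0.77, adjusted p = 0.00271) and 12.0-fold higher in IMO-8400 mice (3.59, SE 0.77, adjusted p = 0.00252), without overlap in either. Between the antagonists the difference was -0.01 (95% interval -1.62 to 1.60, adjusted p = 1). Krt32 was thus the only hair keratin in which all 5 saline mice lay below naïve mice 4 and 5, the mice low in other hair keratins. Beyond the hair keratins, saline mice also lay below all naïve mice in 3 of 7 inner root sheath keratins and 4 of 43 KAP probe-sets (12.3% of all tested). Among these was Krtap5-1, with saline mice at 6.79 to 8.47 and naïve mice 4 and 5 at 8.77 and 9.08.

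Krt77, a suprabasal type II keratin, read 14.13 ± 0.29 (SD, n = 5) in naïve, 12.28 ± 0.45 in saline, 13.90 ± 0.20 in IMO-3100 and 14.04 ± 0.10 in IMO-8400 mice. All 5 saline mice, at 11.65 to 12.89, lay below the other 15, which read 13.60 or more, and Krt77 fell by 1.85 from naïve to saline mice (SE 0.18, limma adjusted p = 4.86e-07). It was 3.07-fold higher with IMO-3100 and 3.39-fold higher with IMO-8400 than with saline (limma adjusted p = 1.62e-05 and 5.48e-06). Krt23, a type I keratin, read 12.99, 12.69, 12.99, 12.59 and 12.59 in naïve mice and 9.70, 10.77, 10.69, 11.07 and 11.35 in saline mice, a fall without overlap (difference -2.06, SE 0.31, limma adjusted p = 5.31e-05). It was 2.56-fold higher with IMO-3100 (adjusted p = 0.0045) and 3.37-fold higher with IMO-8400 (adjusted p = 0.00069), with IMO-3100 mouse 1, at 10.67, inside the saline range. Krt78, also suprabasal, was not lower in saline than in naïve mice by the cutoffs (difference -0.57, SE 0.37, adjusted p = 0.213) and was 2.67-fold and 3.03-fold higher with IMO-3100 and IMO-8400 than with saline (adjusted p = 0.00908 and 0.00389). Naïve mouse 1, at 10.42, was the lowest of all mice for Krt78.

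Krt7, a simple epithelial keratin, was dim in all groups. It read 4.93, 4.85, 5.23, 4.05 and 4.04 in naïve mice, 3.59 to 4.17 in saline mice, 5.04 to 6.11 in IMO-3100 mice and 4.68 to 5.60 in IMO-8400 mice. It was 3.42-fold higher with IMO-3100 and 2.34-fold higher with IMO-8400 than with saline (limma adjusted p = 9.38e-05 and 0.00122), without overlap. Krt20, a keratin of gut epithelium, read 3.29 to 4.82 in IMO-3100 mice and 2.44 to 2.86 in saline mice, close to background. It was at least 1.94-fold higher (adjusted p = 0.00614), and the difference was 0.17 with values under 4 set to 4 (adjusted p = 0.428). Krt19, a simple epithelial keratin also present in the follicle bulge, was lower than in naïve mice in all 3 groups given IL-23. It read 6.70 to 7.44 in naïve mice, 4.90 to 5.25 in saline, 4.02 to 6.14 in IMO-3100 and 5.24 to 6.01 in IMO-8400 mice, without overlap, and fell by 1.94, 1.87 and 1.47 (SE 0.29, limma adjusted p = 4.75e-05, 0.000196 and 0.0024). Krt18 followed the naïve order, with 11.18, 7.79, 5.61, 3.27 and 3.28. It was called lower in IMO-3100 mice only (adjusted p = 0.0496), a call lost under most other settings.

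**Figure D5:**
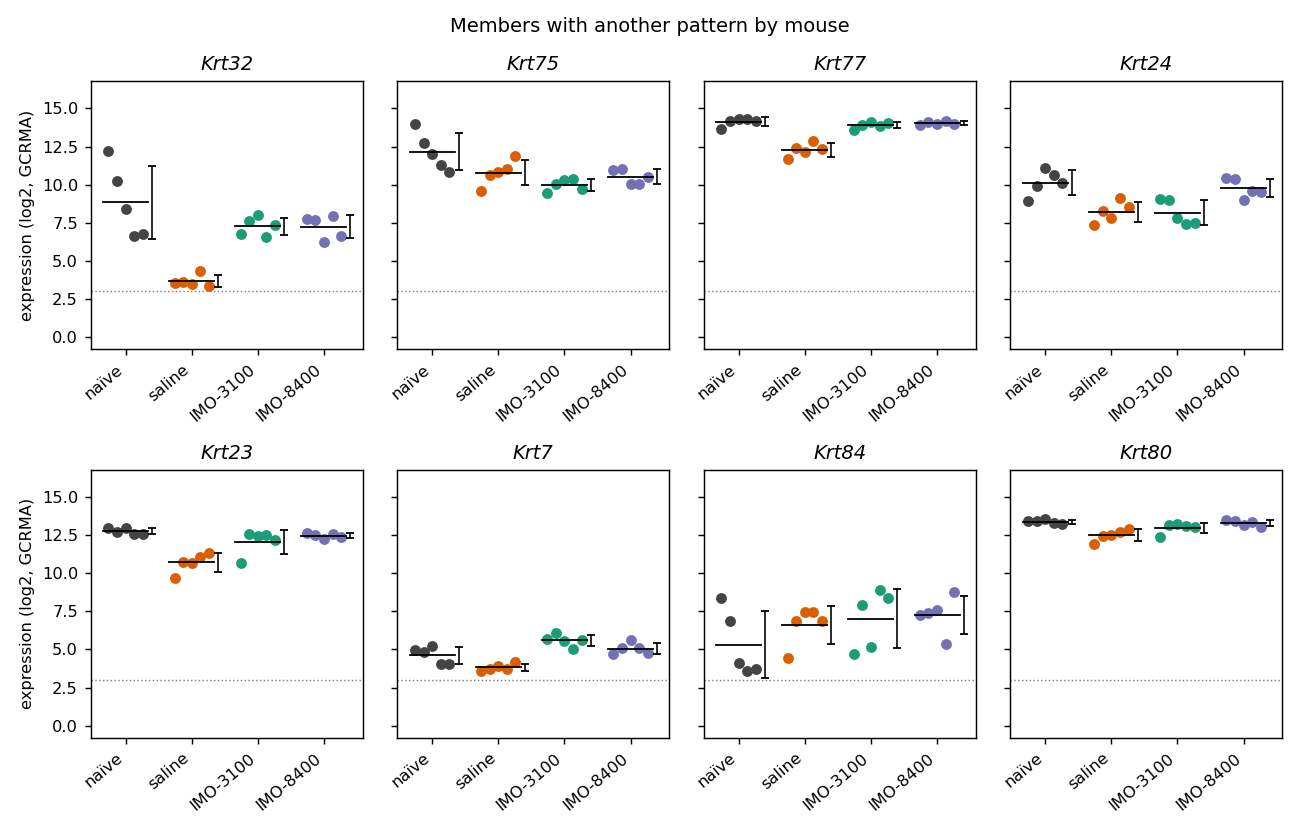
Expression (log2, GCRMA) of 8 keratins in each mouse (points, mice 1 to 5 from left to right), with the group mean (line), its SD (bar) and a dotted line at 3. In Krt32 the saline mice, at 3.33 to 4.36, lie below all 15 other mice, and in Krt84 all 4 groups overlap.

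IMO-3100 and IMO-8400 differed in 1 of the 89 probe-sets, that of Krt24, a type I keratin (0.333% of all tested were higher with IMO-8400). It read 8.90, 9.91, 11.08, 10.62 and 10.08 in naïve mice and 7.34, 8.27, 7.84, 9.11 and 8.51 in saline mice. IMO-3100 mice read 9.05, 9.02, 7.79, 7.42 and 7.48, and IMO-8400 mice 10.41, 10.35, 8.98, 9.58 and 9.52. IMO-3100 mice were thus in the range of saline mice and IMO-8400 mice in that of naïve mice, with an overlap between the antagonists in 2 IMO-3100 mice and 1 IMO-8400 mouse. The difference was 1.62 (SE 0.44, 3.07-fold, limma adjusted p = 0.0464, exact permutation p = 0.0238), and it was lost when any of the 5 IMO-8400 mice was left out, with adjusted p values from 0.0505 to 0.122. Against saline, Krt24 was 2.94-fold higher with IMO-8400 (adjusted p = 0.0132) and differed by -0.06 with IMO-3100 (95% interval -0.98 to 0.85, adjusted p = 0.961). For Krt20 expression dropped by 1.14 from IMO-3100 to IMO-8400 mice (SE 0.32, limma adjusted p = 0.0535), a difference called when arrays were scaled in another way (adjusted p = 0.0476 and 0.0464). None was called lower with IMO-8400 in limma, with 3 lower at an unadjusted p below 0.05 and 2 by the exact permutation test. In IMO-3100 mice 72 of the 89 were near background and could hardly be undercut. The share of all probe-sets lower with IMO-8400 than with IMO-3100 was not counted.

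Krt75, of the companion layer between the sheaths, was bright in all mice and kept the naïve order, with 13.95, 12.70, 11.99, 11.30 and 10.84. It fell by 1.37 in saline mice (SE 0.48, limma adjusted p = 0.0257), which overlapped with naïve mice (exact permutation p = 0.0714), and this call was lost without saline mouse 1. It fell by 2.17 in IMO-3100 mice (SE 0.48, adjusted p = 0.00282), without overlap. Krt84, a type II hair keratin also known from the tongue, read 8.39, 6.85, 4.09, 3.56 and 3.71 in naïve mice and 6.63 ± 1.25, 7.01 ± 1.93 and 7.28 ± 1.24 (SD, n = 5) in saline, IMO-3100 and IMO-8400 mice, with no difference called (adjusted p = 0.297 between saline and naïve mice in limma). It was the one hair keratin whose mean was not lower after IL-23. Krtap5-1 fell by 2.19 in saline mice without overlap (SE 0.51, adjusted p = 0.00221), and was not called in the antagonist groups against naïve mice (adjusted p = 0.208 and 0.136). Krt80, of differentiating keratinocytes, fell by 0.88 in saline mice (SE 0.17, adjusted p = 0.000594), below the FCH cutoff, with every saline mouse under every naïve mouse. Krt79, known from the follicle opening and sebaceous duct, stayed between 13.53 and 14.22 in all 20 mice.

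Genes that act with hair keratins were looked at from lists that hold none of the 89 probe-sets. Over all probe-sets tested, 8.92% were lower and 7.58% higher in saline than in naïve mice. Of 8 measured partner proteins of shaft and sheath, 7 were lower and 1 higher in saline than in naïve mice, with a median difference of -4.74. Their mean expression was 12.74, 11.39, 9.42, 4.94 and 3.76 in naïve mice 1 to 5, 4.41 to 5.14 in saline mice and 6.65 in IMO-8400 mouse 5, against 4.00 to 4.47 in the other IMO-8400 mice. Gprc5d, a receptor of the differentiating shaft, read 13.19, 11.70, 9.36, 2.20 and 2.02 in naïve mice and fell by 5.68 (SE 1.56, limma adjusted p = 0.00673), and S100a3, a cuticle protein, fell by 5.67 (SE 1.51, adjusted p = 0.0056). For Gprc5d naïve mice 4 and 5 lay below 3, as for Krt81 and Krt86, where the exact permutation p was 0.167. For genes of these and the following lists only the limma test is given. Tgm3, a transglutaminase of both sheath and epidermis, was the one that rose (2.68, SE 0.75, adjusted p = 0.00777). Of 12 regulators of hair differentiation 7 were lower and 0 higher in saline mice, with a median difference of -1.20. The transcription factor Msx2 read 10.54, 8.00, 5.25, 2.03 and 2.02 in naïve mice, the signal Shh 10.68, 8.55, 2.31, 2.21 and 2.02, and Hoxc13, a direct regulator of hair keratin genes, 12.45, 10.41, 8.44, 7.56 and 7.42. Hoxc13 fell by 3.25 in saline mice (SE 0.73, adjusted p = 0.00161). IMO-8400 mouse 5 was at 2.02 for Msx2 and Shh and at 6.86 for Hoxc13, inside the range of the other IMO-8400 mice for Hoxc13.

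Melanocyte genes kept the naïve order too, with means over 7 genes of 12.47, 10.09, 7.35, 5.51 and 5.46, and 5 of 7 were lower in saline mice, among them Mlana, which fell by 5.17 (SE 1.15, limma adjusted p = 0.00147). Their mean in IMO-8400 mouse 5 was 4.91, close to the 4.15 to 4.90 of the other IMO-8400 mice. The mean over inner root sheath keratins was 7.38 in that mouse and 2.28 to 2.51 in the others. Bulge and resting follicle genes varied little among naïve mice, with means of 9.70 to 10.29, and 7 of 9 were lower in saline mice (8.07 to 8.96). Lhx2, a bulge transcription factor, fell by 3.69 (SE 0.39, adjusted p = 1.1e-06). Of 6 proliferation genes 1, Plk1, was higher in saline mice (1.43, SE 0.39, adjusted p = 0.00612), and naïve mouse 1 had the highest mean of all 20 mice, 11.40. Beside these counts, 8.92% of all probe-sets tested were lower and 7.58% higher in saline than in naïve mice.

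The labelled tissue held in all arrays: the means of epidermal keratinocyte markers were 13.55 to 14.56 in every mouse. Array medians were 6.09 to 6.29, and any pair of arrays correlated at 0.943 to 0.997. In saline against naïve mice, 1 of 5 epidermal, 1 of 5 skeletal muscle and 3 of 4 adipocyte markers were lower, and 4 of 4 neutrophil and 4 of 5 T cell markers higher. Of all probe-sets tested 8.92% were lower and 7.58% higher. The summed log2 levels were 69.2 to 72.0 in naïve and 67.8 to 70.8 in saline mice for epidermal markers, 68.2 to 72.9 and 66.6 to 70.1 for muscle, 50.9 to 54.1 and 43.4 to 48.8 for adipocytes, 23.38 to 30.97 and 42.4 to 45.2 for neutrophils, and 33.01 to 45.33 and 50.1 to 53.7 for T cells, with no marker list at background. Naïve mouse 1 had the lowest naïve sum for each of these lists. The part of tissue makeup in the results was not tested.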

How the data were processed

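Full-thickness skin of 20 mice was hybridised to 20 arrays, 5 in each group. The authors normalised the arrays with GCRMA and deposited 1 table of log2 expression values for 45101 probe-sets, which was used as given. Gene symbols came from the platform annotation and were matched to RefSeq by Entrez gene, which was found for all 76 genes. Filtering required 3 or more arrays over 2, which all 45101 met, and an SD above 0.1, which left 30960 probe-sets, among them 81 of the 89 described. Counts over the 89 include those removed. Group means of the 4 groups were compared by moderated tests with limma 3.58.1 under R 4.3.3, using Benjamini-Hochberg adjustment over the 30960; the script was tested on simulated data. Calls needed FDR<0.05 and FCH>2. Each pair of groups was also compared by the 2-sided exact permutation test over its 252 divisions, whose smallest p is 0.00794. Overlap of groups and the order of mice were judged with values under 3 set to 3. Replicates are separate mice. The precision of each value is limited by the number of arrays. Named genes were, in each role class, the 4 with the highest mean over the 20 arrays, in each comparison the 3 called that rose most and the 3 that fell most, every called gene where 10 or fewer were called, up to 4 called simple epithelial and other keratins per comparison, and up to 3 called genes of each other list. KAPs were to be classed by protein composition. No protein sequences were used here, so they were kept as 1 class. The genes and lists were chosen with earlier results of these data known. Alternatives were other filters, a floor of 4, other array scaling, 2 groups alone, other variance moderation, the exact test and leaving out arrays. Removing naïve mice 1 to 3 together, adjusting the exact test over all probe-sets, and setting values under 3 to 3, were chosen after seeing the data.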

Additional observations from a re-analysis of the deposited data

Results flagged for a closer look

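In 87 groups of 5 mice, the highest or lowest mouse stood apart from the rest in 22 by Dixon's criterion (critical value 0.71). These were the groups of each named gene and treatment group with a range of at least 0.1 (25 had a smaller one). The rate of about 1 in 20 groups holds for independent, normally spread values and cannot be applied here. The same mice recur in every gene, and where 4 mice share the lowest value, any mouse above them is flagged by construction. Of the 22, 12 were IMO-8400 mouse 5, the highest of its group. Among sheath keratins this mouse read 12.44 for Krt25 (others 2.02 to 2.57), 9.75 for Krt27 (2.82 to 3.09) and 9.46 for Krt71 (2.02). Among hair keratins it read 7.67 for Krt33a, 5.27 for Krt33b, 4.01 for Krt34, 4.06 for Krt81, 4.36 for Krt83 and 2.30 for Krt86, the last still below 3, with the others between 2.02 and 2.47. Among KAPs it read 8.90 for Krtap8-1, 7.04 for Krtap22-2 and 6.13 for Krtap15, with the others at 2.02. In IMO-3100 mice, mouse 5 was high for Krt18 at 3.71 (others 3.21 to 3.30), mouse 3 was low for Krt27 at 2.03 (2.71 to 2.90), and mouse 1 was low for Krt23 at 10.67 (12.18 to 12.57) and for Krt80 at 12.36 (13.03 to 13.23). In saline mice, mouse 4 was high for Krt32 at 4.36 (3.33 to 3.61) and for Krt33b at 2.29 (2.02), and mouse 1 was low for Krt84 at 4.47 (6.86 to 7.48) and for Krtap5-1 at 6.79 (8.06 to 8.47). The flags of Krt86 in IMO-8400, Krt27 in IMO-3100 and Krt33b in saline mice lie wholly below 3, where values have no order. Naïve mouse 1 was low for Krt77 at 13.62 (14.19 to 14.33) and for Krt78 at 10.42 (12.22 to 12.92).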

How the results depend on the processing

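Of 89 probe-sets, those lower in saline than in naïve mice were 63, and 18 with the stricter filter (above 4 in at least 5 arrays), which removes probe-sets at the lowest value in most mice, 27 with 2 groups alone, 18 by the adjusted exact permutation test, 11 by that test with values under 3 set to 3, 30 without naïve mice 1 and 2 together and 14 without naïve mice 1 to 3 together, with 62 to 68 when 1 array was left out. In the same settings and order, those lower in IMO-3100 than in naïve mice (59) were 14, 13, 14, 0, 21 and 9 (49 to 63 with 1 array left out), and those lower in IMO-8400 mice (57) were 12, 2, 0, 0, 9 and 5 (19, without naïve mouse 2, to 58). Those higher than in naïve mice (0 in each group) were 1 in saline and 1 in IMO-8400 mice without naïve mice 1 and 2, 1 and 2 without naïve mice 1 to 3, and for IMO-3100 mice 1 with a common 75th percentile, 1 with quantile normalization, and 2 without naïve mice 1 and 2 or 1 to 3. With 1 array left out they were 0 in saline, 0 to 2 in IMO-3100 and 0 to 1 in IMO-8400 mice. For the antagonist groups, the share of all probe-sets higher than in naïve mice was not counted. Between the antagonists, the 1 higher with IMO-8400 became 0 with no filter, with values under 4 set to 4 and by the adjusted exact test, with or without values under 3 set to 3 (0 to 1 with 1 array left out), and the 0 lower became 1 with a common 75th percentile, quantile normalization, 2 groups alone, trend and robust moderation, and without naïve mice 1 and 2 or 1 to 3 (0 to 1 with 1 array left out). The 6 higher than saline with each antagonist stayed at 6 or 7 when 1 array was left out. The 63 with a naïve SD above 2 were 13 with the stricter filter and 10 without naïve mice 1 to 3, and 57 to 63 with 1 array left out. Without naïve mice 1 to 3 the sign turned for Krt18 in IMO-3100 against naïve mice (0.072) and, in IMO-8400 against naïve mice, for Krt33b (0.36), Krt34 (0.40), Krt71 (0.34) and Krt81 (0.41). The mice left out were those highest in these genes, so the naïve mean falls by construction. Where no construction is named, the cause was not tested. Shares of all probe-sets called were not counted under these settings, so a drop in the 89 cannot be set against the whole array. Values at the lowest signal have no order, and folds against them are bounds.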
